A study of Homo sapiens with 26 samples.

Results

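Cytokines, chemokines, growth factors and their receptors were examined among RNAs associated with EZH2 (the enzyme of Polycomb repressive complex PRC2 that methylates histone H3) and among genes that changed when EZH2 was targeted by siRNA. Members were taken by gene symbol: interleukins and their receptors, colony-stimulating factors, LIF, chemokines, the TNF, TGF-beta, BMP, WNT, FGF, VEGF, PDGF, IGF and neuregulin families, ephrins and Eph receptors, prokineticins, NOTCH genes and JAG genes, wherever such a symbol stood in any of the 6 deposited lists. The rule found 65 genes among the 4083 symbols of the lists. Of these, 26 encode ligands and 25 receptors, 1 is a receptor antagonist (IL1RN) and 1 a binding protein (IGFBP1). The other 12 are neither. They carry a family name for another reason, such as TNF-induced proteins (TNFAIP), or match by spelling alone, such as NRGN (neurogranin, a postsynaptic protein) and IGFN1 (a muscle protein with immunoglobulin and fibronectin domains).

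Secreted ligands of these families bind receptors on the same or a neighbouring cell. Cytokine receptors of the IL-6 family share the signal-transducing chain IL6ST (gp130) and signal through JAK kinases and STAT factors, IL-1 and TNF receptors signal largely through NF-kB, and TGF-beta and BMP receptors phosphorylate SMAD proteins. In glioblastoma the PDGF, FGF, TGF-beta and Notch systems are well-studied regulators of growth and stem-like state, and IL8 and CCL2 are among the inflammatory factors the tumour cells release.

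The labels describe 26 libraries, all from established cell lines. Small RNA that co-precipitated with EZH2, small RNA from an IgG2a control precipitate and input small RNA were sequenced from K562 (chronic myeloid leukaemia, 1 library of each kind), T98G and U87MG (both glioblastoma, 2 of each kind), all untreated. T98G also gave fragmented long RNA from EZH2, IgG2a and no-antibody material (2 of each kind) and 1 iCLIP library, in which RNA is crosslinked to EZH2 by ultraviolet light before precipitation. Polyadenylated RNA came from U87MG after siRNA directed at EZH2 or, as control, at GFP (2 libraries each), and the treatment label of the second siEZH2 library names EZH3 where its title names EZH2. Nothing in the labels says whether paired libraries came from separate cultures.

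What the files hold is the authors' calls: exons for small RNA, gene bodies for full-length RNA, introns described as retained beside U87MG exons, and genes past an adjusted p of 0.05 under siEZH2. Counts for single libraries were not analysed here, so read depth is unknown, no value has a replicate error, and the marker genes of the cell lines could not be checked. EZH2 itself has no row in the siEZH2 table, so it was not among the genes listed at that threshold. Its depletion could not be checked, and neither could the direction of the fold changes, which was taken from the order of names. Shares carry 95% Wilson intervals, which cover counting error only.

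Members were a small part of each list. They made up 35 of 1341 genes in the siEZH2 table (2.61%, 1.88 to 3.61) and 20 of 926 genes in the full-length list (2.16%, 1.40 to 3.31). In the small RNA lists they were 16 of 2046 genes in T98G (0.782%, 0.482 to 1.27), 6 of 596 in U87MG (1.01%, 0.462 to 2.18) and 3 of 384 in K562 (0.781%, 0.266 to 2.27). The retained intron list held none among its 38 genes. For scale, 369 of 20149 protein-coding symbols in GENCODE release 44 match the same rule (1.83%). The T98G small RNA interval lies below that share, while the siEZH2 interval begins just above it. Which of these genes the cells express is not given, so the annotated share is no estimate of what could have been called.

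**Figure D1:**
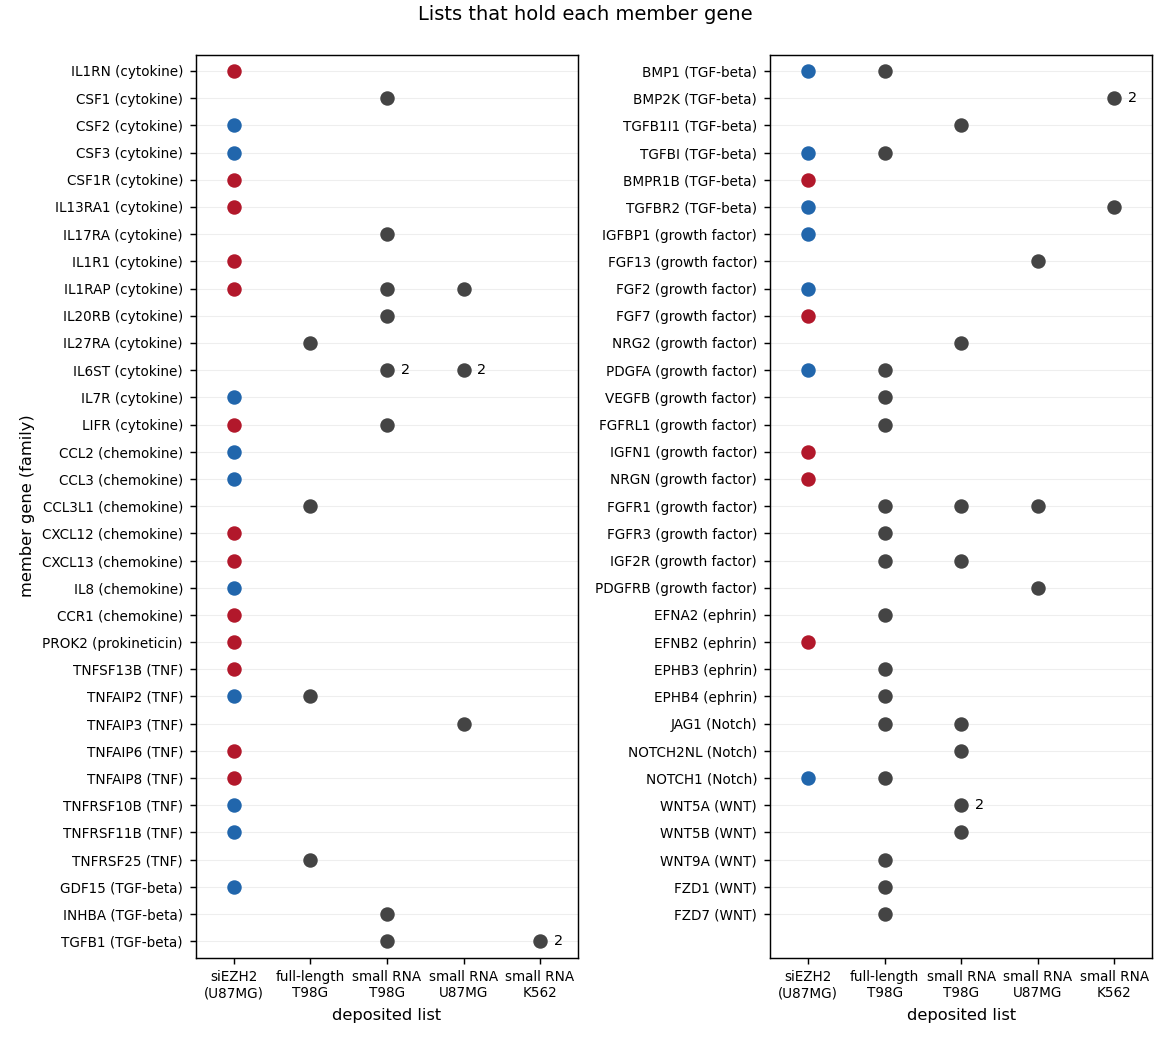
Each row is 1 of the 65 member genes with its family, and each column 1 of the 5 deposited lists that hold members. A dot marks presence, a number beside it the exons listed when above 1. In the siEZH2 column red is higher and blue lower under siEZH2. Most rows have a single dot: 52 genes are in 1 list, 11 in 2 and 2 (FGFR1 and IL1RAP) in 3.

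The knockdown comparison asked which genes changed in U87MG when EZH2 was targeted. Among the listed members, the lowest values belonged to the ligands CSF3, IL8, PDGFA and FGF2 and the decoy receptor TNFRSF11B, and the highest to PROK2, CXCL13 and the chemokine receptor CCR1. In the authors' deposited table, 18 of the 35 members were higher under siEZH2 and 17 lower (51.4% higher, 35.6 to 67.0), beside 661 of all 1342 rows (49.3%). The direction of the members as a whole was therefore near that of the table. Ligands were higher in 6 and lower in 8 cases, and receptors higher in 7 and lower in 5.

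**Figure D2:**
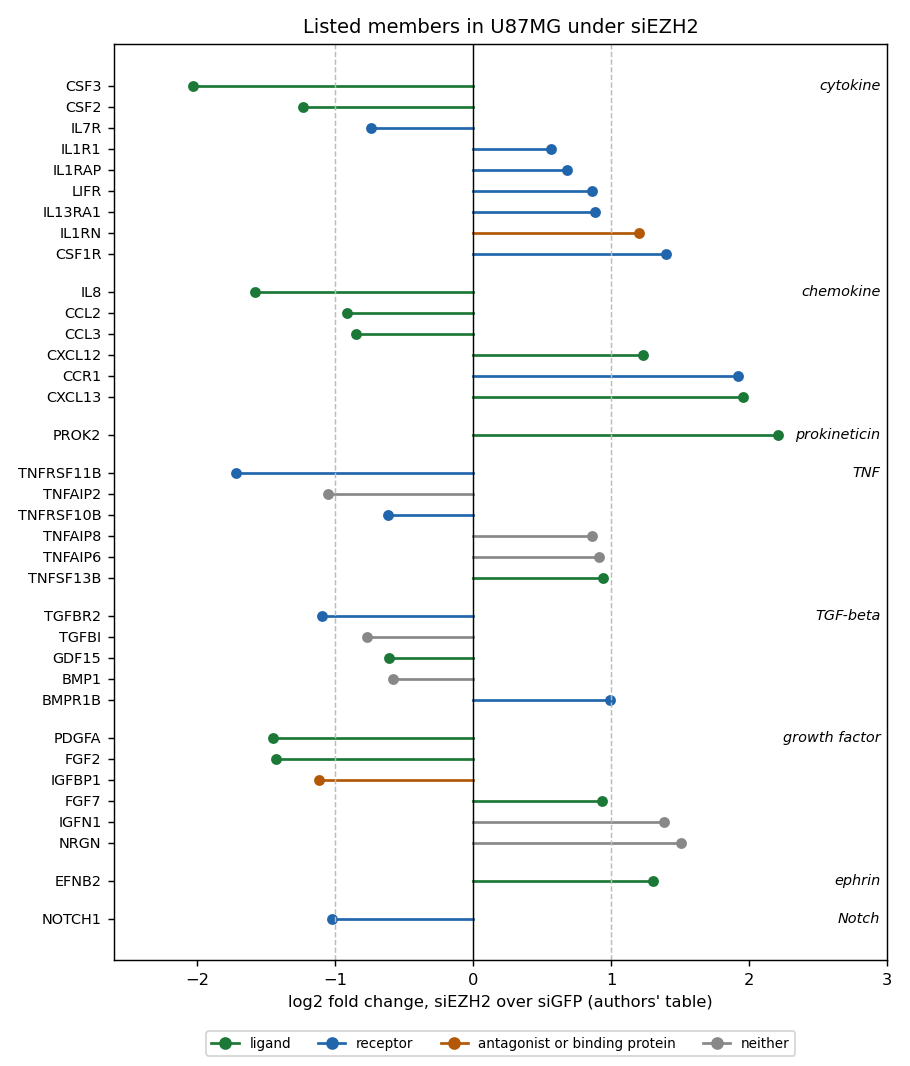
Horizontal axis: the authors' log2 fold change, siEZH2 over siGFP, in U87MG, with dashed lines at -1 and 1. Each dot is 1 of the 35 listed members, grouped by family and coloured by role; the table gives no errors. The values run from -2.03 (CSF3) to 2.21 (PROK2). The chemokine, TNF and growth factor classes each have 3 members on either side of 0. In the growth factor class, the higher members are FGF7 and the spelling matches IGFN1 and NRGN.

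CSF3, the granulocyte colony-stimulating factor, had a log2 fold change of -2.03 in the authors' deposited table (chromosome 17, 38171614 to 38174066), the second lowest of all 681 lower rows. The related granulocyte-macrophage factor CSF2 stood at -1.23 in the authors' deposited table. IL8 (current symbol CXCL8), which attracts neutrophils, stood at -1.58 in the authors' deposited table, the ninth lowest of all rows. Both colony-stimulating factors and this chemokine were thus listed lower. CCL2 and CCL3, which attract monocytes, were at -0.91 and -0.85 in the authors' deposited table. CCL3 has near-identical copies, and reads could be split between them. Of the mitogens, the authors' deposited table put PDGFA, a ligand of PDGF receptors, at -1.45, and FGF2, the basic fibroblast growth factor, at -1.43. FGF2 shares exon sequence with NUDT6 on the opposite strand; per the labels, reads were aligned without strand, so reads of the overlapping genes cannot be told apart. GDF15, a stress-induced ligand of the TGF-beta superfamily, was at -0.61 in the authors' deposited table.

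Other ligands were listed higher. PROK2, a prokineticin that acts through G protein-coupled receptors, had the fourth highest value of all 661 higher rows in the authors' deposited table, 2.21 (chromosome 3, 71820807 to 71834357). The lymphoid chemokine CXCL13, a B cell attractant, stood at 1.96 and CXCL12, the ligand of CXCR4, at 1.23 in the authors' deposited table. The chemokine ligands were thus divided, with IL8, CCL2 and CCL3 listed lower and CXCL12 and CXCL13 higher. EFNB2, a membrane-bound ligand of Eph receptors, was at 1.31, TNFSF13B, the B cell survival factor BAFF, at 0.94 and FGF7, the keratinocyte growth factor, at 0.93 in the authors' deposited table.

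Of 6 listed cytokine receptors 5 were higher, and of the 9 genes of the cytokine family 6 (66.7%, 35.4 to 87.9), an interval that includes the 49.3% of all rows. CSF1R, the receptor tyrosine kinase for CSF1, had the largest value of these in the authors' deposited table, 1.40 (chromosome 5, 149432854 to 149492935). LIFR, which pairs with IL6ST, was at 0.86, and IL13RA1, a chain of IL-4 and IL-13 receptors, at 0.88 in the authors' deposited table. In the IL-1 system 3 parts were listed, all higher: the signalling receptor IL1R1 at 0.57, its partner chain IL1RAP at 0.68 and the receptor antagonist IL1RN at 1.20 in the authors' deposited table. IL7R, the IL-7 receptor chain, was the exception at -0.74 in the authors' deposited table. The chemokine receptor CCR1 stood at 1.92 in the authors' deposited table. CSF1R and CCR1 are best known from myeloid cells. Their levels are not in the table, and a fold change alone does not show how abundant an RNA was.

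Both listed TNF receptors were lower. TNFRSF11B, the decoy receptor osteoprotegerin, was at -1.72 and TNFRSF10B, a death receptor for TRAIL, at -0.62 in the authors' deposited table. TGFBR2, the receptor kinase that binds TGF-beta, was at -1.10, while the BMP receptor kinase BMPR1B was at 0.99 in the authors' deposited table. TGFBI, a matrix protein induced by TGF-beta, was at -0.77 and BMP1, a protease that trims procollagen, at -0.58 in the authors' deposited table. Of the 5 TGF-beta class genes 1 was higher (20.0%, 3.62 to 62.4), an interval that includes the 49.3% of all rows. NOTCH1, the one listed Notch receptor, stood at -1.02, and IGFBP1, which binds insulin-like growth factors, at -1.12 in the authors' deposited table. Of the TNF-induced proteins, TNFAIP2 was at -1.05, TNFAIP6, a hyaluronan-binding protein, at 0.91 and TNFAIP8 at 0.86 in the authors' deposited table. The spelling matches IGFN1 and NRGN were at 1.38 and 1.51 in the authors' deposited table. Exon sequence overlaps a gene of the opposite strand for 7 of the 35 members (FGF2, CCL3, TNFRSF10B, IL1R1, EFNB2, IGFN1 and NRGN), and none of those partner genes is itself listed.

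The size of the listed decreases set the members beside the table as a whole. A log2 fold change of at most -1 was reached by 10 of 17 lower members (58.8%, 36.0 to 78.4) and by 122 of all 681 lower rows (17.9%) in the authors' deposited table. Among higher rows the shares were 9 of 18 members (50.0%, 29.0 to 71.0) and 346 of 661 (52.3%). Counting both directions, 19 of 35 members (54.3%, 38.2 to 69.5) and 34.9% of all rows changed by at least 1. The median of the lower members was -1.05 against -0.74 for all lower rows in the authors' deposited table, and the medians of higher rows were 1.10 and 1.01. The 50 lowest rows of the table held 5 members (CSF3, TNFRSF11B, IL8, PDGFA and FGF2) and the 50 highest held 3 (PROK2, CXCL13 and CCR1). Expression levels are not in the table.

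**Figure D3:**
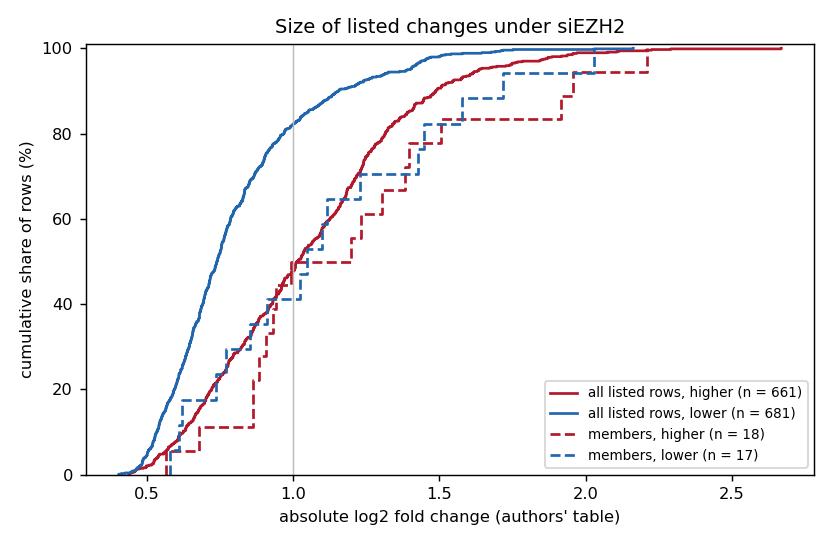
Cumulative share of rows (percent) against the absolute log2 fold change in the authors' table. Solid lines are all listed rows and dashed lines the members, red for higher and blue for lower under siEZH2. To the right of 1 lie 17.9% of all lower rows but 10 of the 17 lower members, while the 2 red lines meet near 1, with 52.3% of all higher rows and 9 of 18 higher members beyond it.

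Of the 35 members in the siEZH2 table, 8 also had an EZH2-associated RNA call in at least 1 list (22.9%, 12.1 to 39.0), close to the 302 of 1341 listed genes that did (22.5%). PDGFA, NOTCH1, TNFAIP2, TGFBI and BMP1 were full-length targets in T98G, and all 5 were lower in U87MG under siEZH2. The same direction was common in the table, where 94 of the 111 listed full-length targets were lower (84.7%). LIFR had a small RNA exon in T98G, IL1RAP the same exon in T98G and U87MG, and TGFBR2 an exon in K562. Of these 3 genes TGFBR2 was lower and LIFR and IL1RAP were higher, whereas 167 of 232 listed genes with a small RNA exon in any line were lower (72.0%). With 5 and 3 genes these splits say little beyond the genes themselves, and T98G and K562 calls are set here beside a change measured in U87MG. Of the 8 members among the 50 lowest and 50 highest rows, PDGFA was the only one with such a call. The share of all genes in those rows with a call was not counted, so no comparison is made.

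Of the 20 members among full-length targets in T98G, 10 were receptors, 6 ligands and 4 neither. Growth factor and ephrin receptors were FGFR1, FGFR3, EPHB3, EPHB4 and IGF2R, which carries IGF2 and mannose 6-phosphate proteins to lysosomes. WNT signalling was represented by the receptors FZD1 and FZD7 and the ligand WNT9A. JAG1, a Notch ligand, and NOTCH1, its receptor, were both listed. Other members were FGFRL1 (an FGF receptor relative without a kinase domain, counted as neither), VEGFB, PDGFA, EFNA2, CCL3L1, the IL-27 receptor chain IL27RA, the death-domain receptor TNFRSF25, TNFAIP2, TGFBI and BMP1. The rows span whole genes, from 3851 bp for FZD7 (chromosome 2, 202899310 to 202903160), a gene without introns in its coding sequence, to 144409 bp for IGF2R (chromosome 6, 160390131 to 160534539) among the 16 rows that name 1 gene. Their median width was 23987 bp, beside 23221 bp over all 759 rows that name 1 gene. With joined rows included the medians were 32083.5 bp over 20 member rows and 24205.5 bp over all 824.

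In the other 4 member rows several genes are joined, compared with 65 of all 824 rows (7.89%), and the row does not say which of them carried the signal. TNFRSF25 is joined with PLEKHG5, and EFNA2 with MUM1. EPHB3 lies in a row of 13 genes over 549721 bp of chromosome 3 (183852826 to 184402546) that also holds the WNT transducer DVL3 and the BMP antagonist CHRD. CCL3L1 is joined with 3 copies of TBC1D3, and since CCL3L1 itself is a near copy of CCL3, reads of these genes are hard to assign. These 4 members are uncertain as targets.

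The small RNA lists held 30 member exon rows, 26 distinct exons in 21 genes once lines were joined. Receptors and ligands were equally frequent in T98G, 7 genes each. Of the IL-6 receptor family, 2 exons of IL6ST and 1 of LIFR, its partner in the LIF receptor, were listed. Further cytokine receptors were IL17RA, IL1RAP and IL20RB, and further receptors FGFR1 and IGF2R. Ligands were CSF1, TGFB1, the activin subunit INHBA, the neuregulin NRG2, the Notch ligand JAG1 and the non-canonical WNT ligands WNT5A (2 exons) and WNT5B. TGFB1I1 (a focal adhesion protein) and NOTCH2NL (a short relative of NOTCH2, with near-identical copies among which reads may be split) completed the T98G list. U87MG held FGF13 (an intracellular FGF relative that binds sodium channels, counted by name among the ligands), PDGFRB, the receptor for PDGF-B, and TNFAIP3 (A20, a ubiquitin-editing inhibitor of NF-kB) in addition to FGFR1, IL1RAP and IL6ST. K562 held TGFB1, its receptor TGFBR2 and the kinase BMP2K.

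Called in both glioblastoma lines, with identical ends, were 4 of the 26 distinct exons (15.4%, 6.15 to 33.5), beside 539 of all 3022 distinct exons that were called in 2 or more lines (17.8%). They are exon 10 of 12 of IL1RAP (chromosome 3, 190362037 to 190362186, plus strand), exons 7 and 10 of 17 of IL6ST (chromosome 5, 55259180 to 55259334 and 55251808 to 55252063, minus strand) and exon 12 of 18 of FGFR1 (chromosome 8, 38274824 to 38275032, minus strand). The number is that of the first exon overlapped in the Ensembl canonical transcript, whose ends may differ. Of IL6ST exon 10, 211 of 256 bp were coding, and of the FGFR1 exon 111 of 209 bp. No member exon was called in K562 and another line. TGFB1 was called in K562 and T98G but at different exons, exons 2 and 6 of 7 in K562 (chromosome 19, 41854200 to 41854360 and 41837960 to 41838186) and the last exon in T98G (41836228 to 41837115). All 3 genes with a shared exon are receptors, beside 7 of 16 member genes in T98G and 4 of 6 in U87MG. With 3 genes this says little about shared exons.

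By rows, and counting an overlap of 1 bp or more, 17 of 18 exons in T98G, all 7 in U87MG and all 5 in K562 overlapped coding sequence of GENCODE release 44, beside 89.7%, 93.1% and 89.9% of all exons of these lists. At least 50% of the exon was coding in 8 of 18 member exons in T98G (44.4%, 24.6 to 66.3), beside 65.4% of all T98G exons. All 7 in U87MG and all 5 in K562 passed that limit, beside 76.1% and 62.0%. Of the 26 distinct exons, 13 were coding throughout, 12 were coding in part and 1 (NOTCH2NL) was not. Only 1 overlapped a first exon, that of TGFB1I1, listed with 2071 bp of which 325 bp were coding. Another 6 were last exons, which carry long 3′ untranslated stretches: INHBA, WNT5A, WNT5B, NRG2, TGFB1 and IL20RB. The widest were the last exons of INHBA (5429 bp) and WNT5A (4836 bp). Median width was 460.5 bp for the T98G members, beside 187 bp for all T98G exons, and 182 bp for the U87MG members, beside 166 bp. TGFBR2 in K562 was represented by its 800 bp exon 4 of 7, coding throughout (chromosome 3, 30713130 to 30713929).

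Because the study's title concerns mispriming in reverse transcription, the bases beside each T98G peak were read from GRCh37, the assembly behind hg19. The value in the T98G list has no header. Read as a distance, it places a peak middle in an exon for 17 of the 18 member rows. As background, a reverse transcription primer can anneal within an RNA where the bases resemble the 3′ adapter. AGATCGG is taken as the adapter start from general knowledge of such kits, since the labels do not give it. Of the 17 stretches, 11 are shown, all with a peak in coding sequence and free of untranslated bases, 2 of them running past their exon, to show how close each comes to that start. Each has 12 bases before and 27 after the peak middle, 5′ to 3′ on the RNA strand, with capitals on the 7 bases that best match AGATCGG among starts 11 to 15 bases downstream. Exon numbers name the first canonical exon that the listed exon overlaps. The listed TGFB1I1 exon is 2071 bp wide, so its stretch may lie beyond exon 1.
IL6ST exon 10, chr5:55251991-55252029, minus: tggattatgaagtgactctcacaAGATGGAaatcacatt
IL6ST exon 7, chr5:55259169-55259207, minus: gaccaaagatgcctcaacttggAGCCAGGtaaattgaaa
IL1RAP exon 10, chr3:190362149-190362187, plus: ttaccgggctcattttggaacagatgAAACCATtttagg
TGFB1I1 exon 1, chr16:31485230-31485268, plus: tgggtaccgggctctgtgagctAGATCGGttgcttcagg
INHBA exon 3, chr7:41729883-41729921, minus: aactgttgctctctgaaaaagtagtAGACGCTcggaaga
JAG1 exon 15, chr20:10626689-10626727, minus: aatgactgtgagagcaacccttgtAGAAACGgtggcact
LIFR exon 16, chr5:38489204-38489242, minus: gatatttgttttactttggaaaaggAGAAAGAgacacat
IGF2R exon 38, chr6:160500660-160500698, plus: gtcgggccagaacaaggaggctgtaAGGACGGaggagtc
IL17RA exon 7, chr22:17583135-17583173, plus: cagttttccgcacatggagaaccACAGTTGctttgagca
WNT5A exon 3, chr3:55513445-55513483, minus: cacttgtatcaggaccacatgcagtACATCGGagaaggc
CSF1 exon 4, chr1:110460029-110460067, plus: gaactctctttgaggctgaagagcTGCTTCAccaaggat

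The stretches range from a full match to almost none. TGFB1I1 matched all 7 bases, starting 11 bases downstream of the peak middle. WNT5A exon 3 matched 6 of 7, IL6ST exon 10 and IGF2R matched 5, and CSF1 only 2. The stretch of IL6ST exon 7 runs 11 bases past the exon into the intron, where the spliced RNA would continue with the next exon, and that of IL1RAP runs 1 base past.

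Exact AGAT at those starts was found at 3 of the 17 member peaks (IL6ST exon 10, TGFB1I1 and the last exon of TGFB1; 17.6%, 6.19 to 41.0), beside 635 of all 2463 peaks (25.8%). In a window 20 bases further it was found at 2 of 17 and at 84 of 2463 (3.41%). At least 5 of the 7 bases matched at 6 member peaks (35.3%, 17.3 to 58.7), beside 996 of all peaks (40.4%), and at 3 of 17 and 157 of 2463 (6.37%) in the window further on. The 6 peaks were those of TGFB1I1, WNT5A exon 3, FGFR1, IL6ST exon 10, IGF2R and TGFB1. Member intervals thus include the share of all peaks, and with 17 peaks they also include values well below it. The start positions and the sign of the distance were taken from an earlier reading of the same list, so these shares are a description. With the other sign AGAT was found at 81 of all 2463 peaks (3.29%), beside 3.21% in the window further on.

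**Figure D4:**
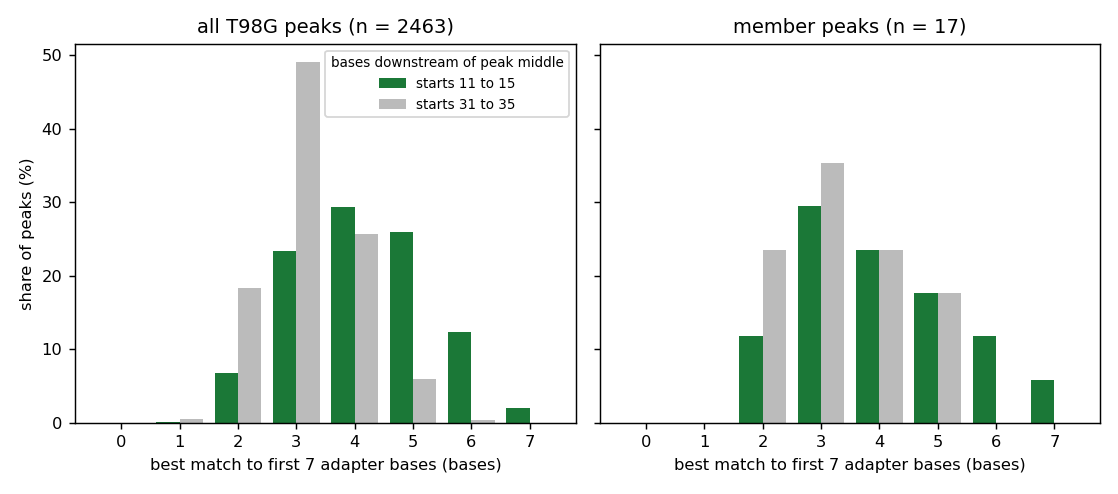
Share of T98G peaks (percent) against the best number of bases matching the first 7 of the adapter, left for all 2463 placed peaks and right for the 17 member peaks. Green bars are starts 11 to 15 bases downstream of the peak middle and grey bars starts 31 to 35. Over all peaks 40.4% of green and 6.37% of grey best matches reach 5 or more bases, and over the member peaks 35.3% and 17.6%.

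Both glioblastoma lines share 2 exons of cytokine receptors that are coding throughout. These are shown whole, with every AGAT in capitals, because the same RNA was called in separate lines there. IL6ST exon 10, also shared, is coding in part and is not shown whole.
IL1RAP exon 10, chr3:190362037-190362186, plus: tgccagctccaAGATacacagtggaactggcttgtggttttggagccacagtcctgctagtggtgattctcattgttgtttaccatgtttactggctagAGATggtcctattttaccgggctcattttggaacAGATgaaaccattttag
IL6ST exon 7, chr5:55259180-55259334, minus: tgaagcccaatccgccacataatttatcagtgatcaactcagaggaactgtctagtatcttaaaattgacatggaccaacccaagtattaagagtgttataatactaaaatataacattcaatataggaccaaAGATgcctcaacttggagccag
The IL1RAP exon holds AGAT from bases 12, 100 and 134, and its T98G peak middle lies after base 124, so the last AGAT begins 10 bases downstream, 1 base short of the window used above. The IL6ST exon holds AGAT from base 134, upstream of its peak middle after base 139. AGAT alone is common: 16 of 18 T98G member exons hold it, beside 79.7% of all T98G exons, and 6 of 7 U87MG and 3 of 5 K562 member exons, beside 80.3% and 72.8%.

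The longer start AGATCG was present on the RNA strand of 3 of 18 T98G member exons (16.7%, 5.84 to 39.2), beside 10.6% of all T98G exons. They were TGFB1I1 and the last exons of WNT5A and WNT5B, 2071, 4836 and 1450 bp wide. On the opposite strand 0 of 18 T98G member exons held it, beside 2.99% of all T98G exons. In U87MG 0 of 7 and in K562 0 of 5 member exons held it, beside 10.8% and 7.81% of all exons of these lists.

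Signalling partners of the members were read from 6 pathway lists that hold no member, 250 genes in all. In the authors' deposited table, 20 of them were listed, 9 higher and 11 lower, beside 1269 of 20149 protein-coding symbols of GENCODE release 44 (6.30%, matched by current symbol). In the TGF-beta and BMP list 6 of 40 genes were present. The secreted BMP antagonist GREM1 stood at -1.30 and the pseudoreceptor BAMBI at -1.03 in the authors' deposited table. The BMP targets ID4 and ID2 stood at 1.31 and 0.82, the receptor kinase ACVR1 at 0.74 and LTBP1, which stores latent TGF-beta in the matrix, at 0.62 in the authors' deposited table. Within this pathway list, both antagonists of BMP signalling were thus lower and both ID genes higher. The list is not complete: the chordin-like gene CHRDL1, outside it, was higher, at 1.24 in the authors' deposited table.

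In the Notch list 4 of 36 genes were present. DLL1, a Notch ligand, stood at 1.74 in the authors' deposited table, in contrast to NOTCH1 at -1.02. Both were full-length targets in T98G. The protease ADAM10 and the ligase DTX3 were at 0.79 and 0.86, and NUMB, an inhibitor of Notch, at -0.58 in the authors' deposited table. Of 42 WNT genes, the secreted inhibitors were divided, with DKK1 at -1.38, DKK3 at 1.16 and SFRP2 at 1.45, and the co-receptor LRP6 was at -0.63 in the authors' deposited table. No WNT ligand or Frizzled receptor was listed under siEZH2.

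The receptor tyrosine kinase list gave 2 of 58 genes, the EGF receptor ligand TGFA at -1.65 and the feedback inhibitor SPRY4 at -1.36 in the authors' deposited table. The TNF and NF-kB list gave BIRC3 at -1.01 and RELA at -0.65, and the JAK-STAT list SOCS4 at -0.54 and JAK1 at -0.49, in the authors' deposited table, each of 2 among 35 and 39 genes. Small RNA exons were listed for 12 of the 58 receptor tyrosine kinase genes in T98G, among them EGFR, MET and PIK3CA, 2 in U87MG (MET and PIK3CB) and 2 in K562 (SOS1 and MAP2K1). Of all protein-coding symbols, 8.49%, 2.58% and 1.60% are in these lists, a share that takes no account of which genes the lines express. In the JAK-STAT list 3 of 39 genes had exons in T98G, beside the 8.49% of all protein-coding symbols. They were JAK2 and STAT3, which act downstream of IL6ST and LIFR, and PIAS1, an inhibitor of STAT factors. The T98G counts were 7 of 42 for the WNT list and 5 of 40 for TGF-beta and BMP. They were 4 of 35 for TNF and NF-kB and 3 of 36 for Notch.

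**Figure D5:**
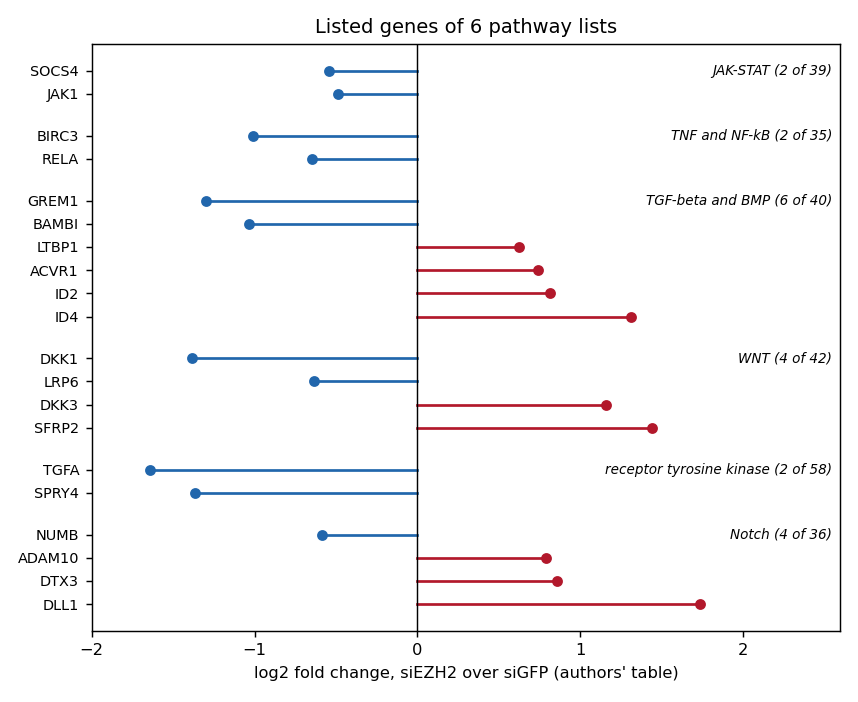
Horizontal axis: the authors' log2 fold change, siEZH2 over siGFP, in U87MG. Each dot is a listed gene of 1 of 6 pathway lists, red for higher and blue for lower, with the number listed of all genes in the list. Genes of the JAK-STAT, TNF and receptor tyrosine kinase lists all lie left of 0, and the other 3 lists have genes on both sides.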

How the data were processed

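Per the labels, the authors removed adapters using cutadapt and aligned reads to hg19: small RNA with BWA, iCLIP with Bowtie2, long RNA with Tophat and siRNA libraries with Tophat 2 version 2.0.11 without strand. Exon reads were counted with bedtools and gene reads with featureCounts, calls were made with DESeq2, and pyicoclip called peaks, per the labels. The deposited siRNA table holds the authors' log2 fold changes, taken as siEZH2 over siGFP from the order of names. The deposited retained intron list holds a score of unstated scale, not used. In the full-length list and the small RNA lists of K562 and U87MG the value equals the number of joined names and was not used. The T98G value was read as a distance, which no header states. The exon middle minus this distance was taken as the peak middle, kept where it fell between 2 bases (2463 of 2573 rows).

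Members, lists, roles, windows and the sign of the T98G distance were chosen with earlier results of these data known. No test was run, because there are 0 columns of values for single libraries. Exons of different lines were joined where they shared at least 1 base on the same strand. Symbols were joined by name. Coding sequence came from GENCODE release 44 on GRCh37. Functions were tested on simulated data with known answers. Python 3.11.15, scipy 1.17.1 and pysam 0.24.0 were used. Named with values were all members in several lists, all 35 listed members, all shared exons, full-length members, and up to 12 coding exon stretches off chromosome 8. Of the latter, 4 were left out because they held untranslated bases. DLL1, EGFR and the other partners named come from the pathway lists. An item of the pathway lists is not reported here and is left out of their counts.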

Additional observations from a re-analysis of the deposited data

How the results depend on the processing

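Under the alternatives, 27 values stayed within 1.5 times the count or within the interval of the share reported, and 5 moved. All 35 listed members passed a limit of 0.5 on the size of the log2 fold change, against 19 at a limit of 1. Members with both a listed change and an EZH2-associated call fell from 8 to 4 when changes under 1 were left out. Reading the T98G distance with the other sign gave AGAT at 5.88% of member peaks against 17.6%. With the first 5 adapter bases in place of 6, 9 member exons held the motif against 3. Of the T98G member exons, 8 were at least 50% coding, against 17 with any coding base. Allowing 5 of 7 bases was chosen after the data had been seen and gave 35.3%. No paired analysis was possible because the lists hold no values for single libraries, and for the same reason leaving out a replicate was not possible. Read depth is unknown, and shares rest on 17 peaks or 35 genes at most.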
